A study of Homo sapiens with 6 samples.

Results

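The genes described here are 46 genes of DNA replication and of entry into S phase, the part of the cell cycle in which the genome is copied. They were taken as a fixed list of symbols, and all 46 had matched transcripts and passed the minimum level for testing, a mean of 0.5 FPKM over the 6 libraries, among 13494 genes with values and 12952 genes tested. FPKM are fragments scaled to transcript length and to library size, so levels can be compared between genes. RNA was sequenced in bulk from NALM6, a single human cell line that came from a leukemia of B-cell precursors, grown in RPMI medium with 10% FBS. One group of 3 libraries came from cells kept for 48 h with verteporfin, at a concentration that the labels give as 0.6 mmol/L, and the other group of 3 from cells kept for the same time with DMSO. Verteporfin is a porphyrin known to keep YAP, the coactivator of the Hippo pathway, from its TEAD partners, and the study compared expression of Hippo pathway genes without and with it. Nothing in the labels says that the replicates were separate cultures, and the p-values therefore reflect only how these libraries varied, which can be technical. All 11 precursor B-cell markers looked for were present, with sums of 1546 to 1889 FPKM under DMSO and of 1196 to 1927 FPKM under verteporfin. Of 11 markers of T cells, myeloid cells, red cells and stroma, LYZ alone was listed, at 1.33 to 2.56 FPKM.

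DNA replication is prepared in G1 phase, when the origin recognition complex, CDC6 and CDT1 load the ring of MCM2 to MCM7 onto origins. This step is called licensing. At the start of S phase CDC45 and the GINS complex join the ring to make the active helicase, and polymerases, clamp and ligase copy the strands. The genes for most of these proteins are known targets of E2F transcription factors, which RB holds back until cyclin-dependent kinases, among them CDK2 with cyclin E, phosphorylate it. In leukemia lines that divide fast these genes are usually well expressed.

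NALM6 cells kept with verteporfin held the RNA of these genes at levels that limma could not tell from those in DMSO: of 46 genes, 0 passed an adjusted p of 0.05, against 2 of 12952 genes tested (0.0154%). At an unadjusted p under 0.05 POLD1 alone was lower and 0 were higher, against 4.48% and 4.36% of all genes tested. The log2 fold change (verteporfin minus DMSO, on log2 of FPKM + 1) was below 0 in 26 genes and above 0 in 20, where 49.3% of all genes tested were below 0. The median over the 46 genes was -0.02, and that over all genes tested was 0.01. In 3 genes, POLD1, POLD2 and FEN1, each verteporfin library was below each DMSO library, or 3 of 46 against 7.74% of all genes tested. In 0 of the 46 each verteporfin library was above each DMSO library, against 6.49%. The share lower without overlap was thus near that of all genes. Counts higher without overlap and at an unadjusted p under 0.05 are too small for a close comparison. A p that misses the threshold does not show that levels were equal. The 95% interval lay within a 2-fold change in either direction for 28 of the 46 genes; its lower bound was below -1 (a 2-fold fall) in 10 genes, and its upper bound was above 1 in 9. In bulk RNA, fewer cells in S phase and less RNA per cell cannot be told apart.

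**Figure D1:**
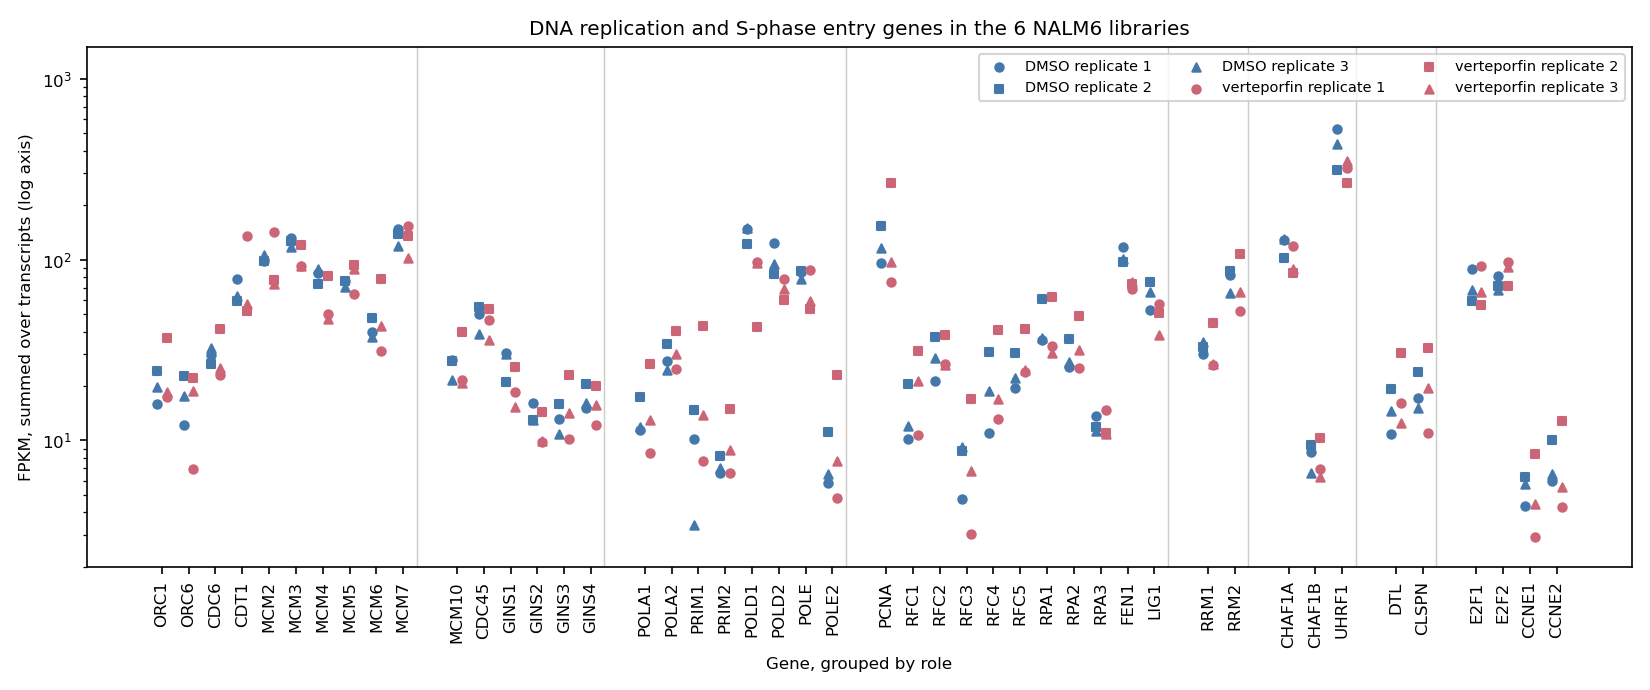
Level of each gene in the 6 libraries, as FPKM summed over transcripts on a log axis. DMSO libraries are blue, verteporfin libraries red, and the marker shape gives the replicate number. The genes span from CCNE1, at a DMSO mean of 5.44 FPKM, to UHRF1, at 426 FPKM, and POLD1, POLD2 and FEN1 are the genes in which the colors do not overlap.

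**Figure D2:**
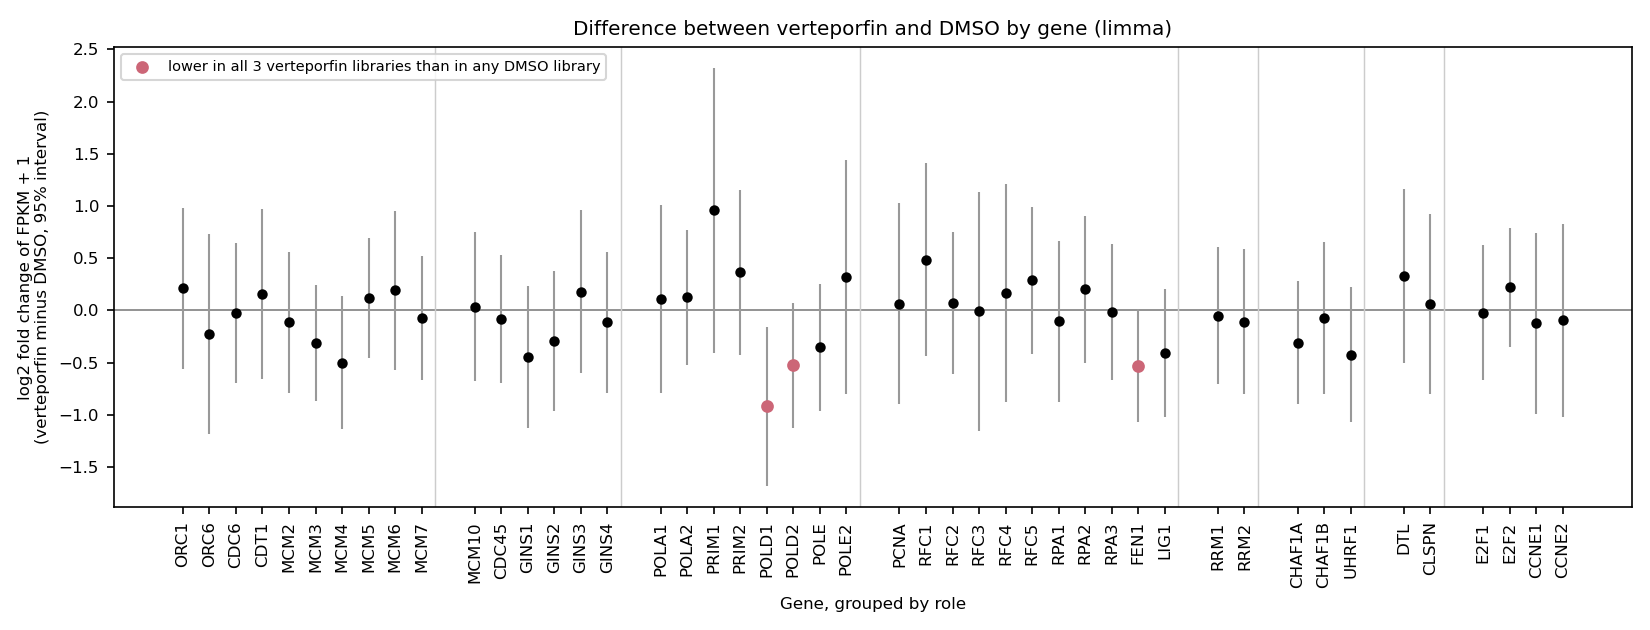
Log2 fold change of each gene with its 95% interval from limma, grouped by role. Red points mark POLD1, POLD2 and FEN1. The interval of POLD1 alone does not include 0.

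The DNA upstream of these genes carries the sequences known as E2F sites more often than that of other genes, which is a known property of the family and shows what the genes share. RefSeq promoter windows on GRCh38.p14 (250 bases before to 50 after a start) were at hand for 40 of the 46 genes, in 50 windows. The letters TTTCGCGC stood in 12% of these windows and in 0.515% of all 35116 windows, TTTGGCGC in 18% against 0.652%, and TTCCCGC in 38% against 6.55%, each searched on both strands. Any of the 3 was found in 58% of the windows, against 7.56% of all windows, and in 27 of the 40 genes. CCAAT, the core of the NF-Y site, stood in 62% against 34.6%. The 27 genes with such a sequence had a median log2 fold change of -0.01, with 14 below 0, and the 13 without had a median of -0.11, with 8 below 0. A match in letters is not a measured site.

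The 160 bases before the start are printed for 4 genes with such letters (MCM6, MCM3, E2F1 and PCNA) and for the 3 genes whose groups did not overlap (POLD2, POLD1 and FEN1), in which none of the 3 E2F sequences was found. Capitals mark TTTCGCGC, TTTGGCGC or TTCCCGC on either strand. PCNA and POLD1 have more than 1 listed start, of which the first in the RefSeq table is shown.
MCM6, chr2:135876444-135876603, - strand: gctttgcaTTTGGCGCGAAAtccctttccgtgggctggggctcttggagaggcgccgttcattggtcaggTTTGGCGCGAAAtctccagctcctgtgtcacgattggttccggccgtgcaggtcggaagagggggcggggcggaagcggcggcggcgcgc
MCM3, chr6:52284743-52284902, - strand: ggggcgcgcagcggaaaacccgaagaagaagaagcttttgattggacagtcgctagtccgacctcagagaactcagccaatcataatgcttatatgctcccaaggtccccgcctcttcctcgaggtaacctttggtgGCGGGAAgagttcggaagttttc
E2F1, chr20:33686386-33686545, - strand: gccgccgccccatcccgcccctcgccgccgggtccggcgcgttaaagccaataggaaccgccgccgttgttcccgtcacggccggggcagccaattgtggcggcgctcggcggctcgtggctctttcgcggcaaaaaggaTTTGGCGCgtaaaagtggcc
PCNA, chr20:5126623-5126782, - strand: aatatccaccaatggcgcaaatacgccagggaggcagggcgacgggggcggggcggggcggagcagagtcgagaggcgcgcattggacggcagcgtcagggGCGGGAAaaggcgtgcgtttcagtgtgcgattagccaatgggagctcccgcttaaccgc
POLD2, chr7:44123549-44123708, - strand: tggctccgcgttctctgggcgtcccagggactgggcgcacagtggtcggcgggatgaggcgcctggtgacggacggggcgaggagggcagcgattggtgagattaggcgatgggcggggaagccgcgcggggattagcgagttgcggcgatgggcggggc
POLD1, chr19:50384163-50384322, + strand: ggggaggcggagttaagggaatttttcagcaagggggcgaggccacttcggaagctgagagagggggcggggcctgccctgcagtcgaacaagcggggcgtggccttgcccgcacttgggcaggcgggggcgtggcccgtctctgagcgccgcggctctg
FEN1, chr11:61792751-61792910, + strand: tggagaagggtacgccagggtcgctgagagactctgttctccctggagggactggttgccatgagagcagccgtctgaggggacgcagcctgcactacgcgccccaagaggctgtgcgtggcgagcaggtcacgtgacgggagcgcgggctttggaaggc
In MCM6 the same 12 letters occur at 2 places, where TTTGGCGC and the reverse of TTTCGCGC share 4 letters. The MCM3 window also holds TTTCGCGC, not wholly within the bases printed.

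Licensing genes showed no common direction, with 6 of 10 below 0, a median log2 fold change of -0.05 and 0 that passed. MCM4, a subunit of the MCM ring, had the lowest log2 fold change of the 10. It was at 84.5, 73.5 and 88.7 FPKM in DMSO and at 50.0, 81.2 and 47.1 FPKM in verteporfin. Verteporfin replicates 1 and 3 were thus below all DMSO libraries, and replicate 2 lay among them. The log2 fold change was -0.50 (standard error 0.29, 95% interval -1.14 to 0.14, adjusted p = 0.637 by limma). With library weights, which give verteporfin replicate 3 a weight of 3.88 and replicate 2 one of 0.363, MCM4 was at -0.77 and was the one gene of the 46 to pass (adjusted p = 0.0379), beside 8.35% of all genes tested.

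MCM3 had the same layout at a smaller size. Its level was 132, 127 and 118 FPKM in DMSO and 92.5, 120 and 92.4 FPKM in verteporfin, a log2 fold change of -0.31 (95% interval -0.87 to 0.24). MCM2 was even in DMSO, at 97.8, 98.1 and 106 FPKM, and spread in verteporfin, at 142, 76.9 and 73.2 FPKM. Here verteporfin replicate 1 was above and the other two below every DMSO library. MCM7, the subunit with the highest summed level, was at 148, 139 and 119 FPKM in DMSO and 154, 134 and 102 FPKM in verteporfin. MCM5 was at 76.6, 76.1 and 71.0 FPKM in DMSO and 64.3, 93.1 and 88.9 FPKM in verteporfin. MCM6, the subunit with the lowest summed level, was at 39.6, 47.3 and 37.1 FPKM in DMSO and 31.3, 77.9 and 42.8 FPKM in verteporfin. In these genes the groups overlapped, and the log2 fold changes of MCM2 (-0.11), MCM7 (-0.07), MCM5 (0.12) and MCM6 (0.19) were all smaller than their standard errors of 0.26 to 0.34.

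The order of the MCM subunits by mean FPKM in DMSO was MCM7 (135 ± 14.9), MCM3 (126 ± 7.32), MCM2 (101 ± 4.76), MCM4 (82.2 ± 7.81), MCM5 (74.6 ± 3.11) and MCM6 (41.3 ± 5.31; SD, n = 3). The DMSO libraries of MCM7 and MCM3 overlapped, as did those of MCM4 and MCM5, whereas the MCM6 sum was below the other 5 sums in each DMSO library. These sums include retained-intron transcripts, with mean DMSO shares of 44.7% in MCM4, 25.2% in MCM5, 21.3% in MCM7 and 1.35% in MCM6. In protein-coding transcripts alone MCM4 (35.7 FPKM) was below MCM6 (39.5 FPKM) in DMSO replicate 1. The order thus depends on which transcripts are summed. In verteporfin the means ran from 50.7 ± 24.3 FPKM in MCM6 to 130 ± 26.6 FPKM in MCM7, with a spread over libraries in MCM6 and MCM2 (97.5 ± 38.9 FPKM) several times that in DMSO.

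The loaders were likewise without a shared change. CDT1, which brings the ring to origins and is destroyed in S phase, was at 78.2, 59.0 and 62.6 FPKM in DMSO and at 134, 52.1 and 57.1 FPKM in verteporfin. Replicate 1 of verteporfin alone stood high, and without it the log2 fold change turned from 0.15 to -0.27. CDC6, the ATPase that works with CDT1, was at 29.5, 26.5 and 32.6 FPKM in DMSO and 23.1, 41.4 and 25.3 FPKM in verteporfin, a log2 fold change of -0.02 (95% interval -0.69 to 0.64). ORC1 and ORC6, subunits of the origin recognition complex, had log2 fold changes of 0.21 and -0.23, with DMSO means of 19.9 ± 4.13 and 17.5 ± 5.27 FPKM (SD, n = 3). The summed level of the 10 genes was 715, 694 and 673 FPKM in DMSO and 717, 737 and 566 FPKM in verteporfin, so that verteporfin replicate 3 alone was below the DMSO libraries.

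Of the 6 genes that turn the loaded ring into the active helicase, 4 were below 0 and 0 passed. GINS1, which encodes a subunit of the GINS complex, was at 30.5, 20.9 and 30.0 FPKM in DMSO and 18.5, 25.5 and 15.4 FPKM in verteporfin. The groups overlapped through DMSO replicate 2 and verteporfin replicate 2, and the log2 fold change was -0.45 (standard error 0.31, adjusted p = 0.707 by limma). The other GINS subunits had log2 fold changes of -0.29 (GINS2), 0.18 (GINS3) and -0.11 (GINS4), and their DMSO means of 13.2 to 17.2 FPKM were below that of GINS1, at 27.2 FPKM. CDC45, the partner of GINS on the ring, had one of -0.08 and MCM10, which helps to start the helicase, one of 0.04. Their DMSO means were 47.7 ± 8.18 and 25.7 ± 3.55 FPKM (SD, n = 3).

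Polymerase genes held the lowest and the highest log2 fold change of the list. POLD1, the catalytic subunit of polymerase delta, which extends the lagging strand, was at 148, 122 and 149 FPKM in DMSO and at 96.4, 42.2 and 95.5 FPKM in verteporfin. Each verteporfin library was below each DMSO library, with replicate 2 the lowest. The log2 fold change was -0.92 (standard error 0.34, 95% interval -1.68 to -0.16). Limma gave it a p of 0.022 before adjustment and of 0.485 after. Without verteporfin replicate 2 it was -0.53 (adjusted p = 0.553), and without verteporfin replicate 1 it was -1.12 (adjusted p = 0.252). POLD2, the accessory subunit of the same enzyme, was at 124, 83.7 and 94.6 FPKM in DMSO and 78.6, 59.5 and 69.0 FPKM in verteporfin. Its sum too was lower in each verteporfin library, by a narrow gap between verteporfin replicate 1 and DMSO replicate 2. The log2 fold change was -0.53 (standard error 0.27, adjusted p = 0.593 by limma). Retained-intron transcripts made up a mean of 50.3% of the POLD2 sum in DMSO and 32.7% in verteporfin. Its protein-coding transcripts alone came to 52.4, 66.7 and 25.5 FPKM in DMSO and 52.6, 47.8 and 33.0 FPKM in verteporfin, so there the groups overlapped.

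POLE, the catalytic subunit of polymerase epsilon of the leading strand, was at 85.1, 86.5 and 78.4 FPKM in DMSO and 87.1, 53.2 and 58.7 FPKM in verteporfin. Verteporfin replicate 1 was above all DMSO libraries and the other two below them, and the log2 fold change was -0.36 (95% interval -0.96 to 0.25). POLE2, its second subunit, had a log2 fold change of 0.32 with an interval of -0.80 to 1.44. The primase genes went the other way from polymerase delta without passing the test. PRIM1, which encodes the subunit that makes RNA primers, was at 10.2, 14.7 and 3.39 FPKM in DMSO and 7.73, 43.0 and 13.8 FPKM in verteporfin. The spread was wide in both groups, and the log2 fold change of 0.96, the highest of the list, had a standard error of 0.61 and was 0.31 without verteporfin replicate 2. PRIM2, the large primase subunit, was at 6.61, 8.24 and 7.04 FPKM in DMSO and 6.61, 15.0 and 8.90 FPKM in verteporfin, a difference of 0.36 on the log2 scale (adjusted p = 0.806 by limma). POLA1 and POLA2, the polymerase alpha subunits that work with primase, had log2 fold changes of 0.11 and 0.12. The summed level of the polymerase genes was 419, 378 and 375 FPKM in DMSO and 315, 303 and 297 FPKM in verteporfin. Each verteporfin sum was below each DMSO sum, but these sums are mostly POLD1, POLD2 and POLE. Of the 8 polymerase genes 3 were below 0 and 5 above, with a median log2 fold change of 0.12. The median difference from the DMSO mean was -0.26, 0.71 and 0.00056 in verteporfin replicates 1, 2 and 3.

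Among the 11 genes of the clamp, its loader, the single-strand binding protein RPA and the joining of Okazaki fragments, FEN1 alone had groups that did not overlap. FEN1, the nuclease that trims the flaps of Okazaki fragments, was at 117, 97.1 and 101 FPKM in DMSO and 68.6, 73.1 and 75.2 FPKM in verteporfin. The groups were apart and the verteporfin libraries close together (72.3 ± 3.36 against 105 ± 10.6 FPKM; SD, n = 3). The log2 fold change was -0.53 (standard error 0.24, 95% interval -1.07 to 0.01, adjusted p = 0.563 by limma), and it stayed between -0.58 and -0.45 when any library was left out. LIG1, the ligase that seals the fragments, was at 52.6, 75.0 and 66.1 FPKM in DMSO and 56.8, 50.6 and 38.5 FPKM in verteporfin, a log2 fold change of -0.41 (95% interval -1.02 to 0.21). Here the groups overlapped.

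PCNA, the sliding clamp, was spread widely over the libraries. It was at 95.8, 154 and 116 FPKM in DMSO and at 75.1, 265 and 97.2 FPKM in verteporfin. In each group replicate 2 was the highest, and the log2 fold change of 0.06 had an interval of -0.90 to 1.03 and turned to -0.48 without verteporfin replicate 2. RFC1, the large subunit of the clamp loader, was at 10.2, 20.4 and 11.9 FPKM in DMSO and 10.7, 31.3 and 21.4 FPKM in verteporfin, a difference of 0.48 on the log2 scale (standard error 0.42, adjusted p = 0.774 by limma). RFC2, RFC3, RFC4 and RFC5, its small subunits, had log2 fold changes of 0.07, -0.01, 0.16 and 0.29. RPA1, RPA2 and RPA3, which coat single-stranded DNA, had -0.11, 0.20 and -0.02. The summed level of the 11 genes was 407, 563 and 448 FPKM in DMSO and 351, 680 and 379 FPKM in verteporfin, again highest in the replicates numbered 2.

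The genes of ribonucleotide reductase, which makes deoxynucleotides, had close means in both groups and 0 that passed. RRM2, its S-phase subunit, was at 81.9, 86.8 and 65.2 FPKM in DMSO and 51.8, 107 and 66.2 FPKM in verteporfin, a difference of -0.11 on the log2 scale (95% interval -0.81 to 0.58). RRM1, the large subunit, had a DMSO mean of 32.6 ± 2.38 and a verteporfin mean of 32.4 ± 10.6 FPKM (SD, n = 3), and its log2 difference was -0.05. The means were close and the verteporfin libraries were further apart.

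Genes that put chromatin back behind the fork were below 0 in 3 of 3, without a call. UHRF1, which leads the maintenance methyltransferase to freshly copied DNA, had the highest level of the list, above 99.2% of genes tested. It was at 529, 314 and 435 FPKM in DMSO and 320, 266 and 352 FPKM in verteporfin. DMSO replicate 2 lay below 2 of the verteporfin libraries, so the groups overlapped (log2 fold change -0.42, standard error 0.29, adjusted p = 0.709 by limma). CHAF1A and CHAF1B, subunits of the histone chaperone CAF-1, had log2 fold changes of -0.31 and -0.07, at very different DMSO means of 120 ± 15.6 and 8.24 ± 1.45 FPKM. DTL, the adaptor that marks CDT1 for destruction in S phase, was at 10.8, 19.2 and 14.5 FPKM in DMSO and 16.1, 30.5 and 12.6 FPKM in verteporfin, a difference of 0.33 on the log2 scale (95% interval -0.51 to 1.16). CLSPN, which encodes the checkpoint mediator claspin, had a log2 fold change of 0.06.

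The 4 regulators of S-phase entry had log2 fold changes from -0.12 to 0.22, with 3 below 0 and 0 that passed. E2F1, an activator of the genes above, was at 89.0, 59.4 and 67.7 FPKM in DMSO and 91.9, 56.0 and 66.4 FPKM in verteporfin. The groups covered much the same range, with means of 72.0 ± 15.3 and 71.4 ± 18.5 FPKM (SD, n = 3). The log2 fold change was -0.02 (95% interval -0.67 to 0.62). E2F2, a further activator of the family, was at 81.3, 71.3 and 68.3 FPKM in DMSO and 97.3, 71.3 and 90.5 FPKM in verteporfin, a log2 fold change of 0.22 (95% interval -0.35 to 0.79, adjusted p = 0.849 by limma). The cyclin E genes were far lower. CCNE1 was at 4.33, 6.28 and 5.70 FPKM in DMSO and 2.92, 8.40 and 4.47 FPKM in verteporfin, and CCNE2 at 5.96, 10.0 and 6.56 FPKM and 4.29, 12.8 and 5.52 FPKM. In both genes verteporfin replicate 2 was above and replicate 1 below the DMSO range, with log2 fold changes of -0.12 (CCNE1) and -0.10 (CCNE2). Verteporfin replicate 3 was also below that range in CCNE2 and within it in CCNE1.

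The 3 verteporfin libraries differed from each other more than the groups did. Set against the mean of the DMSO libraries, the median over the 46 genes was -0.32 in verteporfin replicate 1, 0.44 in replicate 2 and -0.21 in replicate 3 on the log2 scale. Over all genes tested the medians were -0.09, 0.06 and 0.06. In verteporfin replicate 1, 25 of the 46 genes were below every DMSO library and 7 above, in replicate 3 the numbers were 21 and 4, and in replicate 2 they were 11 and 26. Over all genes tested 33.5% were below and 24.3% above every DMSO library in replicate 1, 22.9% and 30.3% in replicate 3, and 33.3% and 36.8% in replicate 2. Among the DMSO libraries replicate 2 was the highest of the 3 in 26 of 46 genes.

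**Figure D3:**
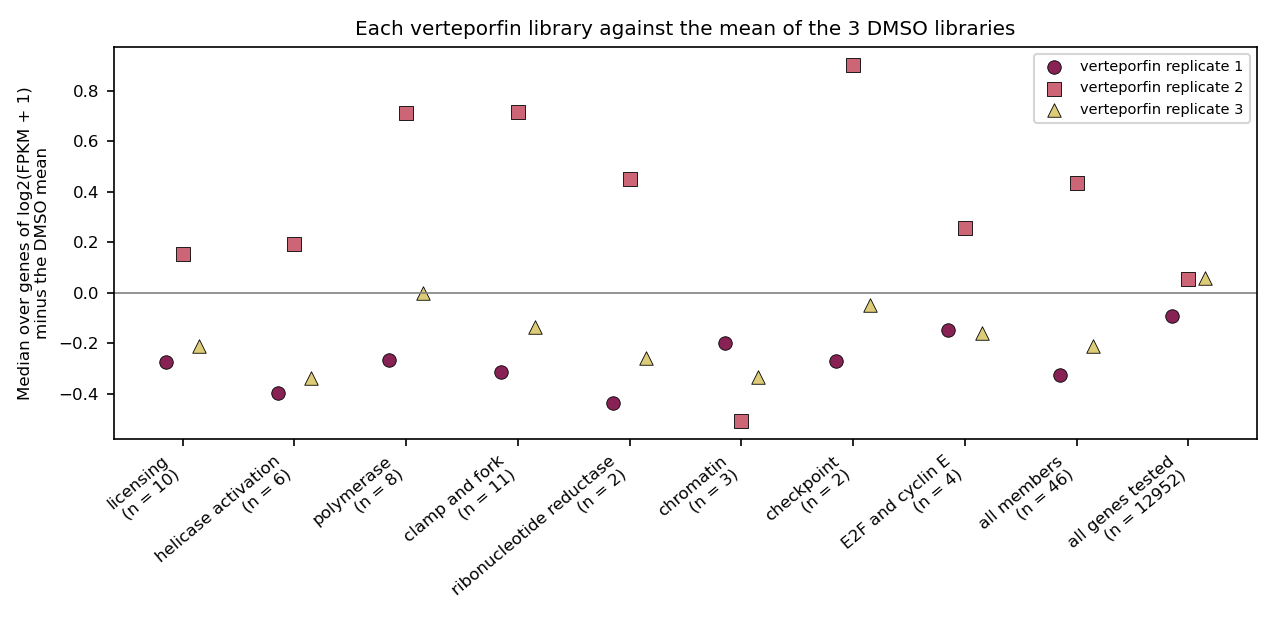
Median over the genes of each role of log2(FPKM + 1) minus the DMSO mean, for each verteporfin library, with all 46 genes and all genes tested on the right. Replicate 2 is above 0 in every role other than chromatin, whereas replicate 1 is below 0 in every role and replicate 3 is below 0 or at it.

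The sign of the list therefore rested on single libraries. Without verteporfin replicate 2, 36 of the 46 genes were below 0 (51.5% of all genes tested) with a median of -0.27. Of the 46, 11 were lower without overlap, against 1692 (13.1%) of 12952 genes tested, and 1 was higher without overlap, against 1630. Without verteporfin replicate 1 the median was 0.13, with 18 below 0 (46.1% of all), in 9 of 46 the groups did not overlap downward (14.3% of all), and without verteporfin replicate 3 the median was 0.06, with 15 below 0 (51.1% of all). With both libraries numbered 2 left out, 29 genes were below 0 (47.9% of all) with a median of -0.14. Of the 46, 13 were lower without overlap, against 2707 (20.9%) of 12947 genes tested, and 2 were higher without overlap, against 2863. In each of these settings 0 of the 46 genes passed limma's test; of all genes tested, 0.1% passed without verteporfin replicate 1 and 0.0926% without replicate 2.

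The genes lined up by base composition in the libraries that stood apart. In verteporfin replicate 2 the difference from the DMSO mean had a correlation of -0.77 with the GC content of the most abundant transcript, in replicate 1 of 0.51 and in replicate 3 of -0.38, each across 46 genes that share 1 library and the DMSO mean. The 23 genes of lower GC content (39.1% to 48.2%) had a median of 0.78 in verteporfin replicate 2 and of -0.36 in replicate 1, and the 23 of higher GC content (48.5% to 64.9%) had -0.04 and -0.19. PRIM1, POLE2 and RFC1, with 41.2%, 41.7% and 41.6% GC, had the highest differences in replicate 2 (2.26, 1.49 and 1.15), and POLD1, with 64.7%, the lowest (-1.70). A different measure is the deviation from the group mean, which cancels out within a group, so that opposite signs are partly forced. Over all 12952 genes tested its correlation with GC content was 0.61, -0.69 and 0.16 in verteporfin replicates 1, 2 and 3. In DMSO replicates 1, 2 and 3 it was 0.42, -0.45 and 0.11. For the 46 genes it was 0.81, -0.84 and 0.16 in verteporfin replicates 1, 2 and 3. With the GC trend of each library removed, a setting added after the data were seen, POLD1 was at -0.65 (adjusted p = 0.244 by limma), FEN1 at -0.56 (0.291), POLD2 at -0.34 (0.523) and MCM4 at -0.57 (0.35). The median over the 46 genes was then -0.10 and that over all genes -0.02, with 0 of the 46 past the threshold against 0.139% of all genes. Of the 46, 29 were below 0 (52.3% of all genes), and 3 did not overlap downward (9.79% of all).

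**Figure D4:**
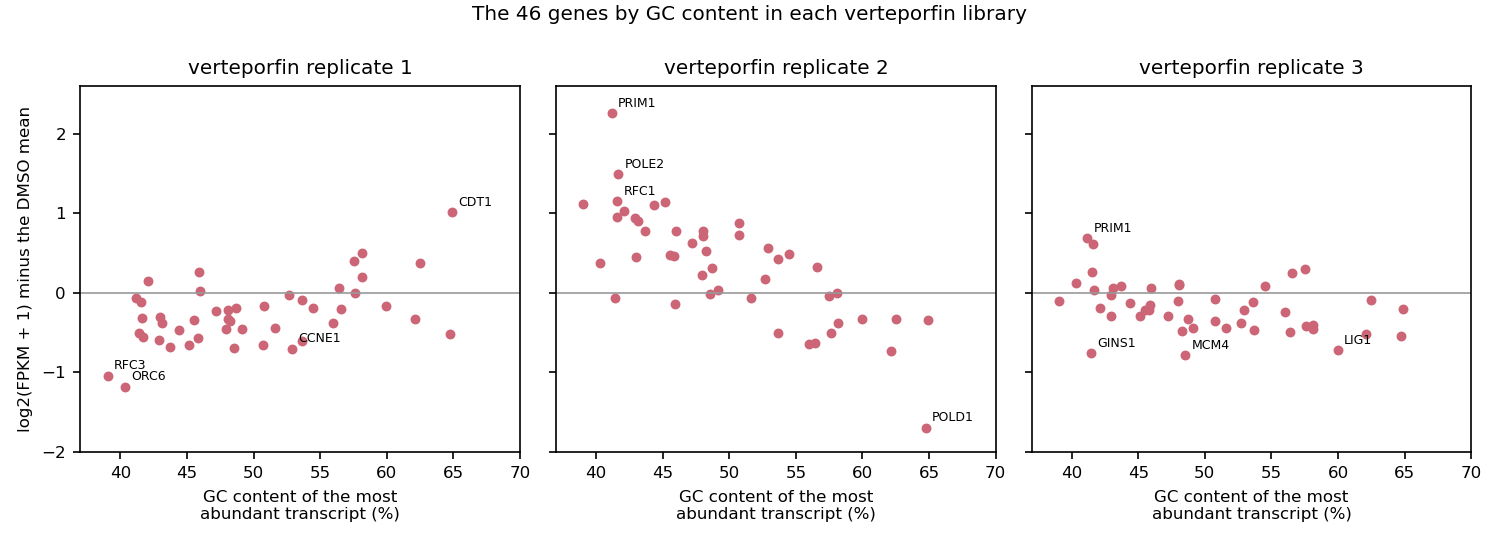
Difference of each of the 46 genes from the DMSO mean, as log2(FPKM + 1), against the GC content of its most abundant transcript, in each verteporfin library. The 4 genes farthest from 0 in each library are named. Genes of low GC content are high in replicate 2, and POLD1 is low there.

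Transcripts of a gene differed between libraries in ways that the gene sums do not show, but no difference between the groups passed the test. The 46 genes had 288 transcripts with values, 153 annotated as protein coding and 97 as retained intron, and 266 passed the minimum level. None passed limma's test over 55148 transcripts (lowest adjusted p = 0.378), against 0.0308% of all transcripts. Of the 266, 13 were lower and 10 higher at an unadjusted p under 0.05. Among all 55148 transcripts 3610 (6.55%) were under 0.05 in either direction, and 1638 of these were lower. The share lower was thus above that of all transcripts, on a count of only 13. The lowest adjusted p was that of a DTL transcript not annotated as protein coding (ENST00000475419). It was at 0.044, 0 and 0.055 FPKM in DMSO and at 9.46, 3.61 and 2.01 FPKM in verteporfin. The transcripts described next were picked with their values known, and the sharing of reads between transcripts of a gene is an estimate. How many of all transcripts have groups that do not overlap was not counted.

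In MCM7 the main protein-coding transcript (ENST00000303887) was at 92.6, 98.4 and 87.0 FPKM in DMSO and 29.9, 87.0 and 28.6 FPKM in verteporfin. Each verteporfin library was below each DMSO library, replicate 2 by less than the rounding shown (adjusted p = 0.759 by limma on transcripts). A retained-intron transcript (ENST00000485286) was at 30.9 FPKM in DMSO replicate 1, listed at 0 in the other DMSO libraries, and at 95.9, 31.7 and 54.5 FPKM in verteporfin. The protein-coding transcripts of MCM7 together made up 78.7% of its FPKM in DMSO and 43.0% in verteporfin (means over 3 libraries), while the gene sum had a log2 fold change of -0.07. By library they came to 98, 125 and 95 FPKM in DMSO and 41, 91 and 36 FPKM in verteporfin. The retained-intron transcripts came to 50, 14 and 24 FPKM and to 114, 43 and 66 FPKM. The protein-coding share was higher in verteporfin replicate 2 than in DMSO replicate 1, so the groups overlapped in this share. In GINS4 the protein-coding transcript ENST00000523277 made up 4.91%, 8.81% and 11.4% of the gene in DMSO and 43.0%, 62.5% and 53.4% in verteporfin, with groups far apart (log2 fold change 1.95, adjusted p = 0.448 by limma on transcripts). Another protein-coding GINS4 transcript (ENST00000276533) went the other way, at 4.49, 10.7 and 2.19 FPKM in DMSO and 0.582, 0.661 and 1.08 FPKM in verteporfin. RRM2 had a transcript (ENST00000360566) at 21.3, 29.8 and 27.8 FPKM in DMSO and 12.5, 13.5 and 14.9 FPKM in verteporfin, lower in each verteporfin library (adjusted p = 0.759 by limma on transcripts). A further protein-coding RRM2 transcript (ENST00000304567) was at 21.5 FPKM in verteporfin replicate 2 and at most 0.00717 FPKM in any other library.

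In MCM3 the share moved between transcripts within a group as well. ENST00000596288 made up 84.3%, 4.69% and 88.1% of MCM3 in the DMSO libraries and 1.31%, 23.4% and 85.3% in the verteporfin libraries, with ENST00000229854 at 85.6% in DMSO replicate 2 and ENST00000616552 at 66.9% and 69.0% in verteporfin replicates 1 and 2. POLD1 was spread over 13 transcripts, and its most abundant, ENST00000599857, had a log2 fold change of 0.25, against -0.92 for the sum. It was at 1.31, 21.5 and 33.1 FPKM in DMSO and 24.9, 2.81 and 29.3 FPKM in verteporfin, so its groups overlapped widely.

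**Figure D5:**
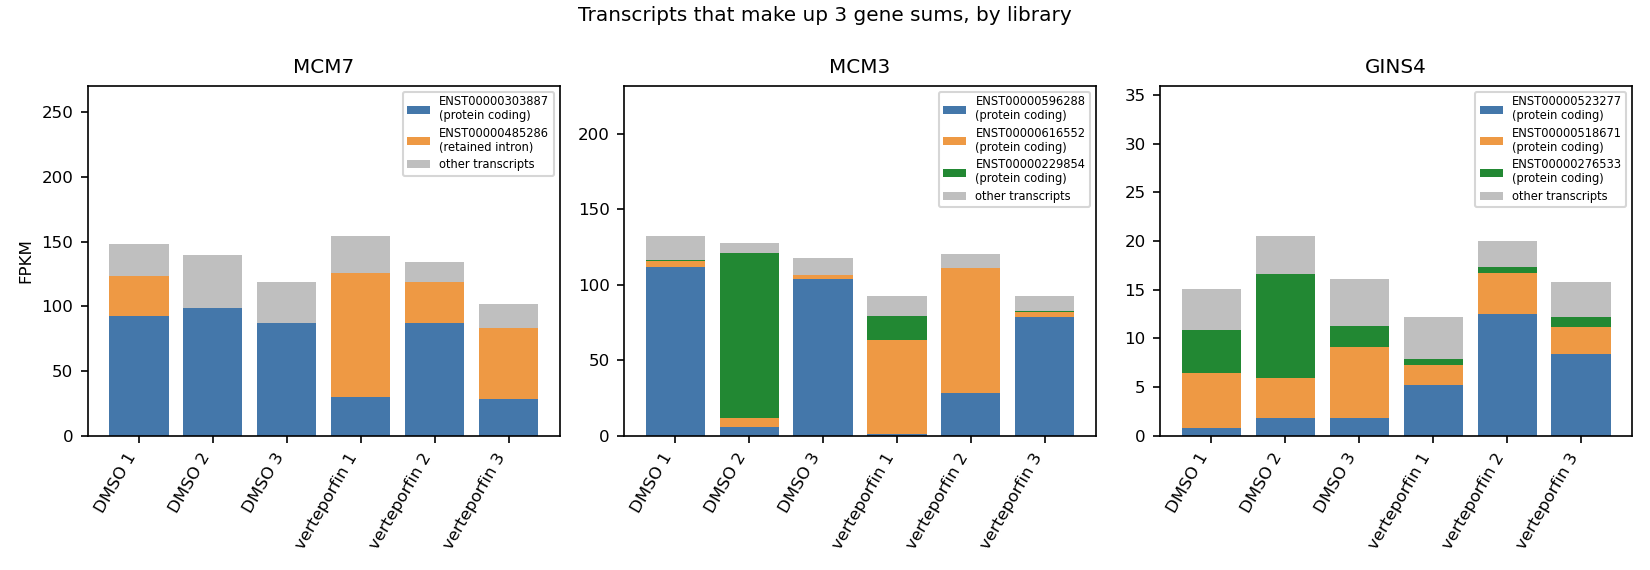
FPKM of the main transcripts of MCM7, MCM3 and GINS4 stacked to the gene sum in each library. The retained-intron transcript of MCM7 reaches 95.9 FPKM in verteporfin replicate 1, and the main MCM3 transcript changes within both groups.

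Other genes of the pathway, from a list of 54 that were all tested, gave a like picture: 0 passed limma's test, 25 were below 0 and 29 above, and the median log2 fold change was 0.03. In 4 the verteporfin libraries were all below the DMSO libraries, or 4 of 54 against 7.74% of all genes tested, and in 0 they were all above. MCMBP, which binds MCM subunits off chromatin, was at 55.3, 51.7 and 83.3 FPKM in DMSO and 34.5, 42.9 and 36.7 FPKM in verteporfin, a difference of -0.70 on the log2 scale (adjusted p = 0.517 by limma). CAD, the enzyme that starts pyrimidine synthesis, was at 82.2, 66.4 and 67.3 FPKM and 45.2, 41.3 and 52.4 FPKM (-0.63, adjusted p = 0.519). TFDP1, the DNA-binding partner of E2F factors, was the most even in DMSO, at 48.7, 47.6 and 47.7 FPKM, against 26.9, 37.9 and 33.7 FPKM in verteporfin, a difference of -0.55 on the log2 scale (adjusted p = 0.572 by limma). CDC25A, the phosphatase that activates CDK2, was at 49.9, 46.5 and 68.6 FPKM with DMSO and 32.3, 39.8 and 36.1 FPKM with verteporfin (log2 fold change -0.58, adjusted p = 0.565 by limma). CDKN1B, which encodes the CDK inhibitor p27, had the largest log2 fold change of the 54, at 0.88 (95% interval 0.12 to 1.63, adjusted p = 0.496 by limma). It was at 37.5, 26.6 and 43.9 FPKM in DMSO and 78.8, 41.6 and 86.3 FPKM in verteporfin, so that verteporfin replicate 2 lay below DMSO replicate 3. Also among the 6 largest were POLE4 (-0.86), a small subunit of polymerase epsilon, CHTF18 (-0.73), a subunit of an alternative clamp loader, and CDK2 itself (0.65), each with an interval that included 0.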

How the data were processed

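Values are FPKM per Ensembl transcript as deposited by the authors. Tools listed in the submitters' processing notes, without roles, are HISAT2 2.1.0, StringTie 1.3.3, STAR, cutadapt, FastQC and edgeR, and the build listed is hg18. Identifiers carry suffixes of a GENCODE release mapped to GRCh37, so the build is uncertain and no coordinates of transcripts are given. The first 62250 rows were used; 4765 further rows of whole numbers (tolerance 0) were not. GENCODE 29 matched 61975 transcripts, and 275 (0.442%) were left out. FPKM were summed per gene, and the 12952 genes whose mean reached 0.5 FPKM entered limma 3.58.1 as log2 of FPKM + 1 (R 4.3.3, eBayes with a variance trend, 2-sided), with treatment as the term and Benjamini-Hochberg adjustment over all genes. Read depth is unknown. The precision is set by the spread of 3 libraries per group. GC content came from GENCODE 29 transcripts and promoters from RefSeq (GRCh38.p14). The fit was tested on simulated data with independent noise in each library. These held no shifts linked to GC content, so the test does not cover them.

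The 46 genes, the other lists and the settings were chosen with earlier results of these data known. All 46 are named. Values in every library are given where groups did not overlap, for the 12 largest log2 fold changes, and always for MCM2 to MCM7, CDC6, CDT1, PCNA, RRM2, E2F1, E2F2, CCNE1 and CCNE2. Of the 54 other pathway genes those that did not overlap or were among the 6 largest are named. Alternatives were the minimum, the pseudocount, scaling, the variance trend, a replicate block, library weights, choices of transcripts and leaving out libraries. Removal of the GC trend was added later. Python 3.11.15, pandas 2.3.3, numpy 2.4.6 and matplotlib 3.10.9 were used.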

Additional observations from a re-analysis of the deposited data

How the results depend on the processing

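None of the 46 genes passed in any setting other than library weights (MCM4), so the count of 0 held in 19 of 20 settings; the smallest adjusted p was 0.485 in the reported fit. The count of all genes past the threshold was 2. It was 0 with a pseudocount of 0.1 or 0.01, equal medians, no trend in the variance, protein-coding transcripts only or both libraries numbered 2 left out, 1 with the most abundant transcript of each gene, 18 with the GC trend removed and 1081 with library weights, where 1 of the 46 genes passed. With 1 library left out it ranged from 0 to 13. At an unadjusted p under 0.05, these settings other than library weights gave 571 to 2291 genes. The replicate numbers were not taken as pairs, since the labels do not say that equal numbers share a culture or a day. Libraries numbered 1, 2 and 3 had correlations of their deviations with the equal number of 0.39, 0.51 and 0.098. Those between unequal numbers ran from -0.46 to 0.14, the highest between verteporfin replicate 3 and DMSO replicate 1. Pairing thus remains possible. With the replicate block 84 genes passed, 13 with the GC trend also removed, and 0 of the 46 in either; POLD1 had an adjusted p of 0.099 with the block.

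Genes of the list below 0 numbered 26, and 15 to 36 with 1 library left out. Genes lower without overlap numbered 3, 6 with the most abundant transcript, 13 without both libraries numbered 2 and 3 to 11 with 1 library left out. Over all genes these shares were 7.74%, 7.96%, 20.9% and 10.6% to 15.2%. With protein-coding transcripts only the number was also 3 (7.87% of all genes), with MCM7 in place of POLD2. The median of the 46 genes, -0.02, ranged from -0.27 to 0.13 with 1 library left out, was 0.06 after quantile normalization and -0.12 with library weights. The log2 fold change kept its sign in 14 genes under all 20 settings, 10 below 0 (CHAF1A, FEN1, GINS1, GINS2, LIG1, MCM3, MCM4, POLD2, POLE and UHRF1) and 4 above 0 (E2F2, PRIM1, PRIM2 and RFC1). With equal medians the sign turned in MCM10 (-0.0065). After quantile normalization the sign turned in CDC45 (0.067), CDC6 (0.092), E2F1 (0.12), MCM2 (0.023), MCM7 (0.048), RPA1 (0.022), RRM1 (0.058) and RRM2 (0.023). With library weights the sign turned in CDT1 (-0.11), DTL (-0.0089), MCM10 (-0.14), ORC6 (0.074), PCNA (-0.15) and RFC2 (-0.018). With protein-coding transcripts only the sign turned in CCNE2 (0.083), DTL (-0.17) and POLA2 (-0.14). With the most abundant transcript of each gene the sign turned in CDC45 (1.51), CDC6 (0.36), CLSPN (-0.11), GINS4 (1.95), MCM10 (-0.41), MCM5 (-0.83), POLA2 (-0.34), POLD1 (0.25), RFC3 (0.31), RFC5 (-0.064) and RPA1 (0.014). Without both libraries numbered 2 the sign turned in CLSPN (-0.12), E2F1 (0.0088), MCM10 (-0.21), MCM2 (0.0036), MCM6 (-0.064), PCNA (-0.30), POLA1 (-0.13), POLE2 (-0.011) and RPA3 (0.033). With the GC trend removed, with or without the replicate block the sign turned in CLSPN (-0.087), E2F1 (0.18), MCM10 (-0.040), PCNA (-0.060) and POLA1 (-0.050). With 1 library left out, these log2 fold changes ran across 0: CCNE1 -0.46 to 0.17, CCNE2 -0.51 to 0.18, CDC45 -0.22 to 0.069, CDC6 -0.28 to 0.13, CDT1 -0.27 to 0.40, CHAF1B -0.27 to 0.056, CLSPN -0.30 to 0.44, DTL -0.020 to 0.59, E2F1 -0.22 to 0.14, GINS3 -0.12 to 0.44, GINS4 -0.28 to 0.055, MCM10 -0.26 to 0.20, MCM2 -0.42 to 0.057, MCM6 -0.16 to 0.48, MCM7 -0.20 to 0.094, ORC1 -0.12 to 0.40, ORC6 -0.53 to 0.25, PCNA -0.48 to 0.42, POLA1 -0.31 to 0.46, POLA2 -0.058 to 0.28, POLE2 -0.27 to 0.76, RFC2 -0.12 to 0.26, RFC3 -0.57 to 0.51, RFC4 -0.30 to 0.52, RPA1 -0.42 to 0.13, RPA2 -0.058 to 0.41, RPA3 -0.15 to 0.058, RRM1 -0.30 to 0.075, RRM2 -0.40 to 0.12. The cause of these changes was not tested.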

Other observations

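A further set of entries in the deposited table holds whole numbers under repeated transcript identifiers, and 32 of them belong to 20 of the 46 genes. What they count is not stated. Summed over the genes they came to 31, 17 and 14 in DMSO and 48, 91 and 31 in verteporfin. The largest entry was that of POLD1 (ENST00000600859), at 8, 1 and 1 in DMSO and 22, 20 and 7 in verteporfin, and the next was that of POLE2 (ENST00000216367), at 13 in verteporfin replicate 2 and 0 to 5 elsewhere. These values belong in no comparison above, since their unit is unknown.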
